A study of Mus musculus with 6 samples.

Results

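The genes described here encode the subunits of complex III, complex IV and ATP synthase, the last enzymes of mitochondrial energy conversion. They were taken as every gene whose symbol in the platform annotation begins with Uqcr, with Cox followed by a digit from 4 to 8, or with Atp5. This gave 39 of 19057 genes: 7 of complex III, 16 of complex IV and 16 of ATP synthase. Each gene was represented by the probe of the highest mean log2 intensity over the 6 arrays. The rule works on symbols, so Cox7a2l, which helps complexes III and IV to associate, is counted with complex IV although it is not a core subunit. Uqcrb, Cox7c, Cox8a and Atp5g1 were not among the annotated probes and were not analysed here.

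The arrays measured total RNA from hearts of FvB mice in a 2 by 2 design. There were 2 arrays of JMJD2A-transgenic hearts after thoracic aortic constriction (TAC) and 1 of transgenic hearts after sham surgery. Wild-type hearts gave 2 arrays after TAC and 1 after sham surgery. TAC narrows the aorta and loads the left ventricle with pressure, whereas a sham operation opens the chest without the band. The transgene is stated to be heart-specific, and the sources used here do not give its promoter or the number of lines. JMJD2A is a histone lysine demethylase encoded by Kdm4a. Hearts were collected 3 weeks after surgery. The labels give an age of 8 weeks for all 6 samples, while the series' design text states the age in years. Nothing says whether an array holds RNA of 1 animal or of several, so p-values measure only the spread between these samples, which may be partly technical.

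The respiratory chain passes electrons through complex III and cytochrome c to complex IV, which reduces oxygen. Both complexes pump protons across the inner mitochondrial membrane, and ATP synthase uses the return of these protons to make ATP. The heart depends on this route for most of its ATP, and its mitochondria fill much of the muscle cell. Several subunits of complex IV exist as a form found in most tissues and a form of heart and skeletal muscle.

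Array pairs correlated at r = 0.984 to 0.994 over 45281 probes on the log2 scale. The highest intensity on any array was log2 14.66. Xist, an RNA made from the inactive X of female cells, was at log2 5.41 in transgenic sham and 5.38 in wild-type TAC 2, against 10.36 to 11.03 on the other 4 arrays, and the labels give no sex. Both arrays of low Xist were therefore also left out together. The brightest of the 3 Kdm4a probes lay at 6.45 to 6.75 in transgenic hearts and at 6.51 to 6.70 in wild-type hearts. The second lay at 6.32 to 7.03 in transgenic and 6.40 to 6.49 in wild-type hearts, and the third at 5.41 to 5.67 in transgenic and 5.49 to 5.80 in wild-type hearts. The Kdm4a probes thus did not separate the genotypes, and whether they can detect the transgene's RNA is not stated. Of the 6 cardiomyocyte markers tested, Myh6, Actc1, Mb and Actn2 lay between log2 13.70 and 14.56 on all arrays. This range does not cover Tnni3 and Ryr2.

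Most subunits of the 3 complexes were among the brightest probes of the heart. Of the 36 members that passed the filter on dim probes (an intensity of 58.7, the median of the probes with a single symbol), 20 had a mean log2 intensity of 14 or more, out of 77 such genes among the 11167 tested. Cox7a1 and Cox6a2, the heart and skeletal muscle forms of their subunits, belonged to these, as did Cox8b, another muscle form. So did Atp5b, the catalytic beta subunit of ATP synthase, and Uqcrc1 and Uqcrc2, the core proteins of complex III. A further 8 members lay between log2 10 and 14, and 8 lay under 10. The members below the filter were Uqcrfs1, the iron-sulfur protein of complex III, with 5.65 to 6.09, Cox7b2 with 5.38 to 5.59 and Cox8c with 5.00 to 5.41. Cox7b2 and Cox8c are testis forms of complex IV subunits. Probes differ in how strongly they bind, so these levels do not rank the genes by amount of RNA.

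**Figure D1:**
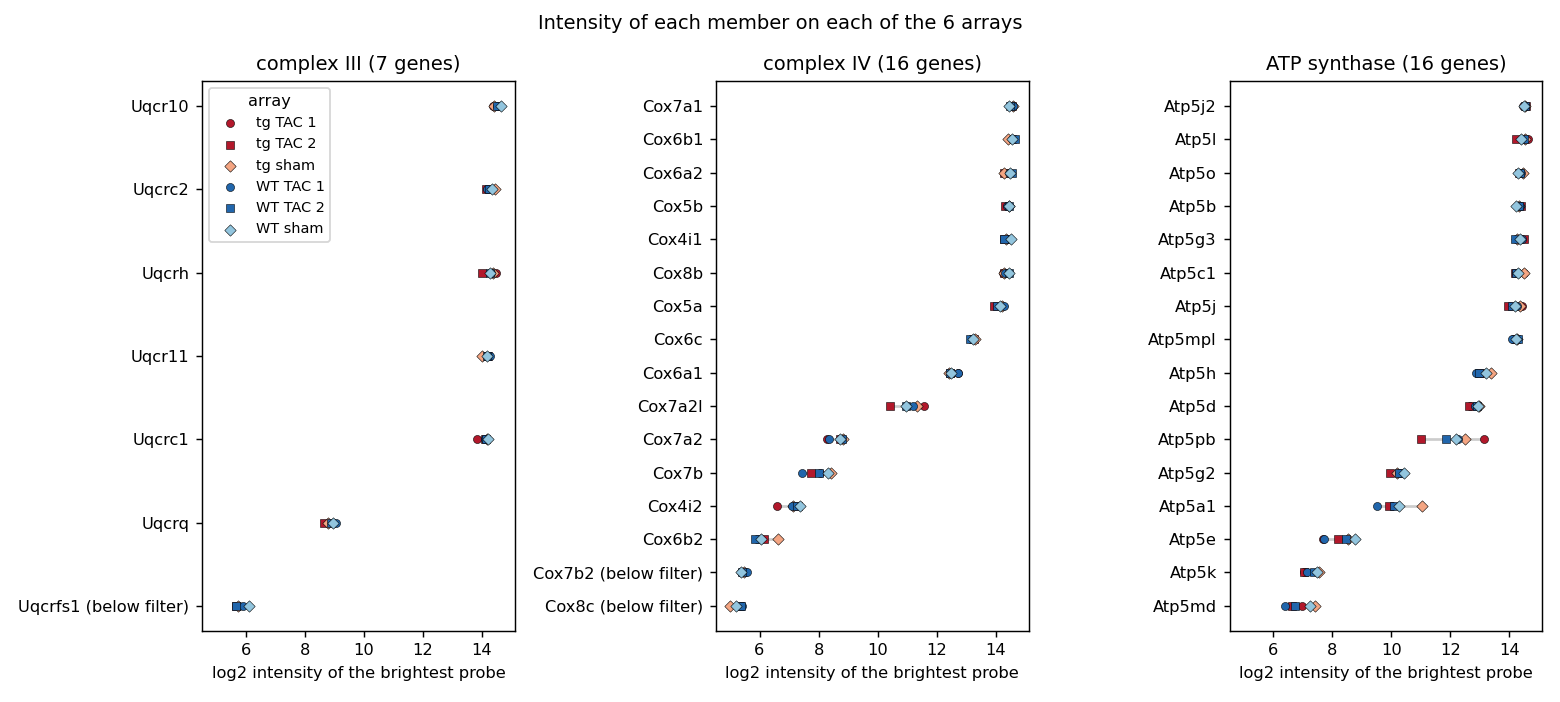
Log2 intensity (horizontal axis) of each of the 39 members on each of the 6 arrays, in a panel for each complex. Points are single arrays and the grey line joins the lowest and the highest of a gene. The bright members form tight columns above 14, and Atp5pb, Atp5a1 and Cox7a2l have the widest spans, 2.13, 1.55 and 1.17.

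The spread of a member over the 6 arrays was narrow for the bright probes and wider for the dim ones. The range between the lowest and the highest array had a median of 0.26 over the 20 bright members, 0.50 over the 8 of middle brightness and 0.79 over the 8 dim ones. For all tested genes of the same brightness these medians were 0.23, 0.49 and 0.46. Atp5j2, the f subunit of the membrane part of ATP synthase, had the narrowest range, 0.11. Atp5pb, the b subunit of its peripheral stalk, had the widest, 2.13.

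The first 250 bases upstream of the gene start were read for the 30 members that have such a window in the RefSeq table used (build GRCm38.p6), 33 windows in all. The 9 members without a window were Atp5a1, Atp5mpl, Cox4i1, Cox4i2, Cox6a2, Cox6c, Cox8c, Uqcrc2 and Uqcrq. Motifs were searched as exact letters on both strands, and no searched motif contains another. As background, nuclear respiratory factor 1 (NRF1), ETS factors such as GABP and estrogen-related receptors (ERR) are known regulators of respiratory chain genes. The ETS letters CCGGAAG occurred in 24.2% of the members' windows and in 6.91% of all 32851 windows. The NRF1 letters, GCGCA and GCGC around any single base, occurred in 15.2% and 3.74%, and the ERR letters TCAAGGTCA in 3.03% (only Atp5g3) and 0.387%. CCAAT was present in 51.5% of the members' windows and 33.8% of all windows. The muscle-related letters were not more frequent: the MEF2 letters, CTA and TAG around any 4 bases, occurred in 3.03% against 3.20%, and the E-box CAGCTG in 6.06% against 13%. TATAAA occurred in 9.09% against 12.4%. The median GC content was 54.4% in the members' windows and 52.4% in all windows. These matches describe letters and not binding.

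The windows of Cox7a2 and Cox7a1 are shown because these genes encode the form of most tissues and the muscle form of the same subunit, and those of Cox7b and Atp5e because both had lower values after TAC on every array. Each is written from 5′ to 3′ on the gene's strand and ends at the base before the gene start, with capitals marking matches to CCAAT (or ATTGG, its complement) and to the ETS letters (CTTCCGG on the other strand). The positions are chr9:79759854-79760103 (minus strand) for Cox7a2, chr7:30183921-30184170 (plus strand) for Cox7a1, chrX:106015450-106015699 (plus strand) for Cox7b and chr2:174464102-174464351 (minus strand) for Atp5e.
Cox7a2: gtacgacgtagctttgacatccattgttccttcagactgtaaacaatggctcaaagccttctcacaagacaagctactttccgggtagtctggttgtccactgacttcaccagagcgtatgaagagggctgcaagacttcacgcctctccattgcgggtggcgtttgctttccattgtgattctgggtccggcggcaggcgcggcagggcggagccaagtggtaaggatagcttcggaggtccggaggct
Cox7a1: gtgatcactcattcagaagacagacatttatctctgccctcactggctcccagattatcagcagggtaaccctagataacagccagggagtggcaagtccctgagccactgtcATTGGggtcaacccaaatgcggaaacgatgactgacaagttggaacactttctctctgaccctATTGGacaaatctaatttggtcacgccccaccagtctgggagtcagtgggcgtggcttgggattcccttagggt
Cox7b: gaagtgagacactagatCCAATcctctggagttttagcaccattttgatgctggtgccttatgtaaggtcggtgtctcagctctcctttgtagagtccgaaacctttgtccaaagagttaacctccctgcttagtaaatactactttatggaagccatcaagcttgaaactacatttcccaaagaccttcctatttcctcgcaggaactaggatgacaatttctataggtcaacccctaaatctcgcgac
Atp5e: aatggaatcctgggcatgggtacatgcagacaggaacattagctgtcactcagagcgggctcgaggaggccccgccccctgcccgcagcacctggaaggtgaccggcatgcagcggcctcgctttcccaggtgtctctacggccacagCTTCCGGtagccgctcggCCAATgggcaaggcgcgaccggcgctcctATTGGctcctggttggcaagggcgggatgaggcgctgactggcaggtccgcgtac
The Cox7a2 window held none of the searched letters, the Cox7a1 window 2 CCAAT matches and the Cox7b window 1. The Atp5e window held 1 ETS match and 2 CCAAT matches. Their GC contents were 54.8% for Cox7a2, 51.2% for Cox7a1, 43.6% for Cox7b and 65.6% for Atp5e.

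The comparison of TAC with sham over both genotypes (4 against 2 arrays, with genotype as a covariate) asks how pressure overload moved these transcripts. No member passed limma's test at an adjusted p under 0.05, and among all tested genes 0.00895% did (1 of 11167). Most members were slightly lower after TAC: 28 of 36 had a fitted difference below 0, against 51.4% of all tested genes. The median log2 difference was -0.09 over the 36 members and -0.01 over all genes. At an unadjusted p under 0.05 stood 7 members, all lower, where 9.26% of all genes stood under it and 4.50% were lower. Only 1 member stood under it without transgenic sham, and 2 did without both arrays of low Xist. The TAC arrays all lay below the sham arrays for 8 members, against 8.16% of all genes, and above them for 1 (Atp5b), against 8.39%. The count of members with a lower value was 22 without transgenic TAC 2, 24 without transgenic sham and 22 without both arrays of low Xist. Here and below, a TAC difference fitted without transgenic sham rests on the wild-type arrays alone. Without both arrays of low Xist it rests on wild-type TAC 1 and wild-type sham.

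By complex, 13 of the 16 ATP synthase genes had a lower fitted value after TAC, with a median of -0.11. In complex IV it was 10 of 14 with a median of -0.08, and in complex III 5 of 6 with a median of -0.06. The largest differences belonged to ATP synthase, from -0.76 to 0.09. In complex IV they ran from -0.54 to 0.13 and in complex III from -0.15 to 0.10. The complexes differ in how many dim probes they hold, so their medians were not tested against each other. With the median over the probes of a gene the ATP synthase median was -0.23. The complex III median ran from -0.11 to -0.04 with single arrays left out and was -0.03 without both arrays of low Xist.

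Atp5a1 encodes the alpha subunit of the catalytic head of ATP synthase. Its log2 intensity was 10.04 and 9.93 in transgenic TAC and 9.50 and 10.08 in wild-type TAC hearts, against 11.05 in transgenic sham and 10.25 in wild-type sham hearts. All 4 TAC arrays lay below both sham arrays, and transgenic sham stood highest. The fitted log2 difference was -0.76 ± 0.20 (SE), a 1.69-fold lower level, with an adjusted p of 0.339. Without transgenic sham the difference was -0.46.

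Atp5md, a small accessory subunit of the membrane part, had the smallest p of the ATP synthase genes. It gave 6.98 and 6.62 in transgenic TAC and 6.41 and 6.75 in wild-type TAC hearts, against 7.42 in transgenic sham and 7.25 in wild-type sham hearts. The groups did not overlap, and the difference was -0.65 ± 0.16 (1.57-fold lower, adjusted p 0.313). The probe is dim, close to the array background, where a fold may be understated.

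Atp5e, the epsilon subunit of the central stalk, read 7.68 and 8.18 in transgenic TAC and 7.72 and 8.48 in wild-type TAC hearts, against 8.53 in transgenic sham and 8.78 in wild-type sham hearts. The lowest arrays were TAC 1 of both genotypes, and wild-type TAC 2 came close to transgenic sham. The difference was -0.64 ± 0.23 (adjusted p 0.456).

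Cox7b, a small subunit of complex IV encoded on the X chromosome, showed 8.05 and 7.75 in transgenic TAC and 7.43 and 8.02 in wild-type TAC hearts, against 8.41 in transgenic sham and 8.31 in wild-type sham hearts. Again every TAC array was below both sham arrays, with a difference of -0.54 ± 0.20 (adjusted p 0.447). It was the only complex IV gene whose TAC and sham arrays did not overlap.

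The other 3 members at an unadjusted p under 0.05 were Atp5k, Cox6b2 and Atp5h. Atp5k, the e subunit at the base of the membrane part, had a difference of -0.37 ± 0.15. Atp5h, the d subunit of the peripheral stalk, had -0.32 ± 0.10, with 13.03 and 12.99 in transgenic TAC and 12.88 and 12.98 in wild-type TAC hearts, against 13.38 in transgenic sham and 13.20 in wild-type sham hearts. Its probe was the brightest of these 7. Cox6b2, a testis form of a complex IV subunit, had -0.36 ± 0.11, but transgenic sham alone stood apart at 6.63 while the wild-type sham array, at 6.05, lay among the TAC arrays (5.83 to 6.15). Its difference was -0.19 without transgenic sham and -0.81 with the 5th percentile of each array subtracted. It was -0.07 with the median over its probes, of which the second lay below the filter.

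In complex III the smallest p belonged to Uqcrc2. It had 14.39 and 14.15 in transgenic TAC and 14.18 and 14.24 in wild-type TAC hearts, against 14.43 in transgenic sham and 14.34 in wild-type sham hearts. The groups overlapped and the difference was -0.15 ± 0.09 (adjusted p 0.678). Uqcrc1, its partner in the core, had -0.14 ± 0.10, with all TAC arrays (13.82 to 14.14) below both sham arrays (14.16 and 14.22). Uqcr11, a small subunit, had the highest difference of this complex, 0.10 ± 0.09.

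The highest differences after TAC were small. Cox6a1 had 0.13 ± 0.13, with -0.03 on its second probe, and Uqcr11 0.10 ± 0.09. Atp5b had 0.09 ± 0.08 and was the only member with all TAC arrays above the sham arrays: 14.34 and 14.40 in transgenic TAC and 14.37 and 14.33 in wild-type TAC hearts, against 14.33 in transgenic sham and 14.22 in wild-type sham hearts. The alpha and beta subunits of the same catalytic head, Atp5a1 and Atp5b, gave fitted differences of -0.76 and 0.09 on the probes used. The second Atp5a1 probe gave -0.07, however, and the Atp5b probe, with a mean of 14.33, lay near the highest intensity of 14.66. The 95% interval was -1.21 to -0.31 for Atp5a1 and -0.10 to 0.27 for Atp5b.

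**Figure D2:**
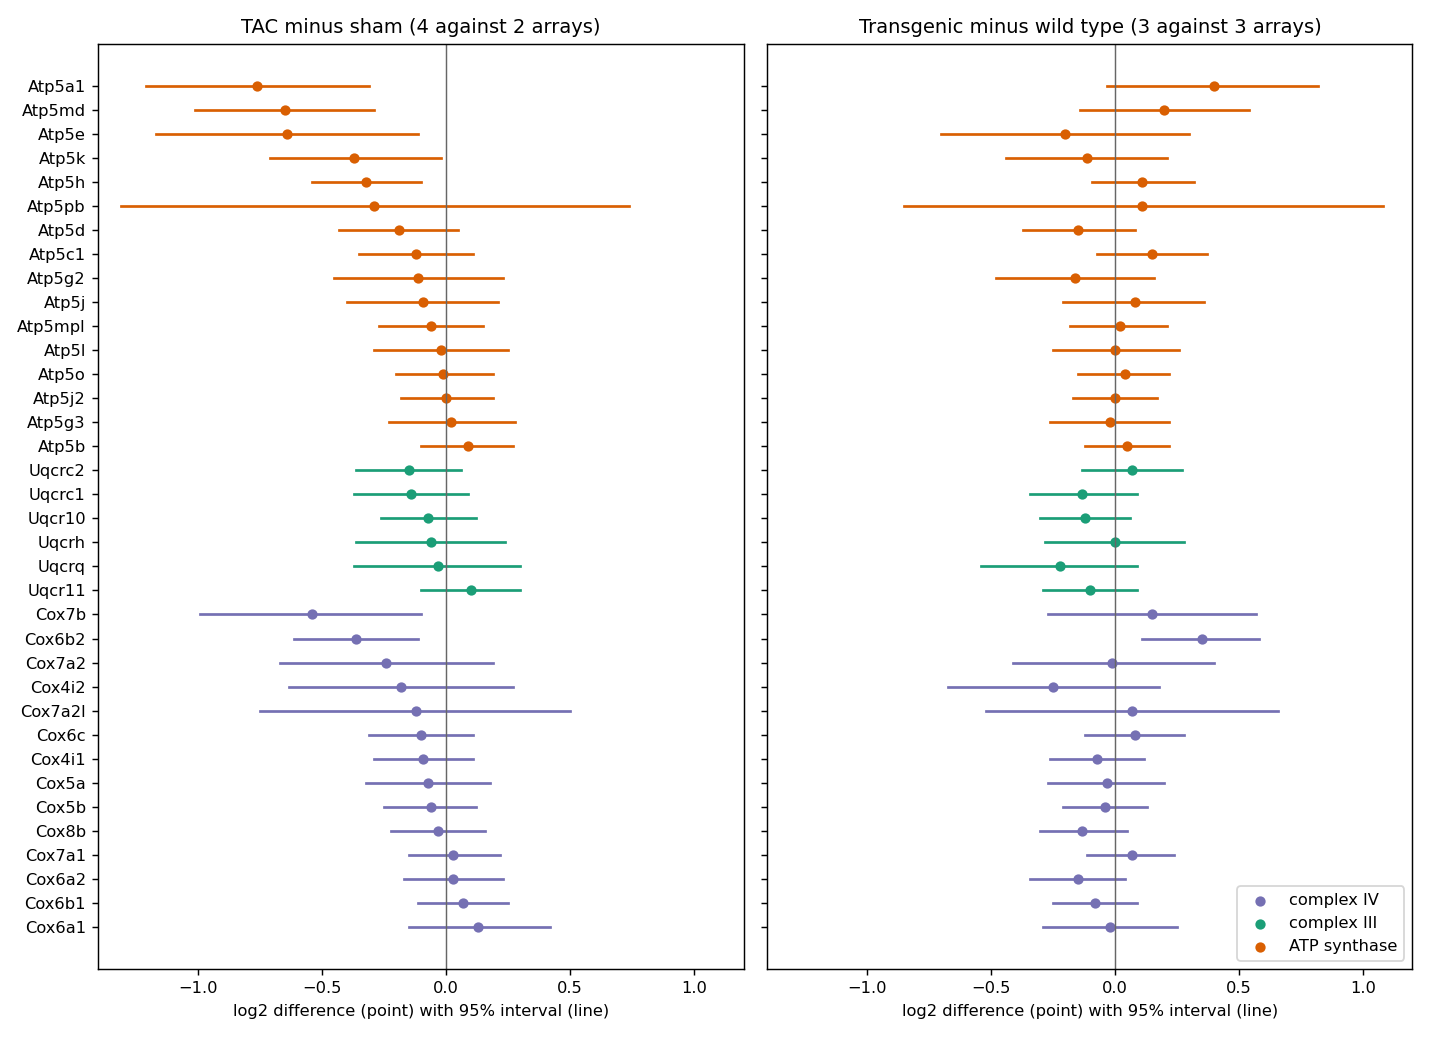
Fitted log2 difference of each of the 36 tested members with its 95% interval, for TAC minus sham (left, 4 against 2 arrays) and transgenic minus wild type (right, 3 against 3 arrays), coloured by complex. After TAC, Atp5a1 (-0.76), Atp5md (-0.65) and Atp5e (-0.64) lie farthest left, whereas most intervals in both panels include 0.

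The median TAC difference of the members went with the brightness of the probe. The 20 members at a mean log2 of 14 or more had differences of -0.15 to 0.10, with 13 of 20 lower and a median of -0.05. The 8 members between 10 and 14 had -0.76 to 0.13, with 7 of 8 lower and a median of -0.16. The largest difference, that of Atp5a1, was in this middle class. The 8 members under 10 had differences of -0.65 to -0.03, with all 8 lower and a median of -0.36. For all tested genes under 10 the median was 0.00, and 51.1% were lower. Without transgenic sham, without transgenic TAC 2, and without both arrays of low Xist, 7 of these 8 were lower. The bright probes lay near the highest intensity of the arrays, log2 14.66, and the part of this limit in the narrow range was not tested. Among all genes of that brightness the median size of the difference was 0.06, and among the members 0.07. Between 10 and 14 it was 0.14 among all genes and 0.16 among the members. Under 10 it was 0.12 among all genes and 0.36 among the members.

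**Figure D3:**
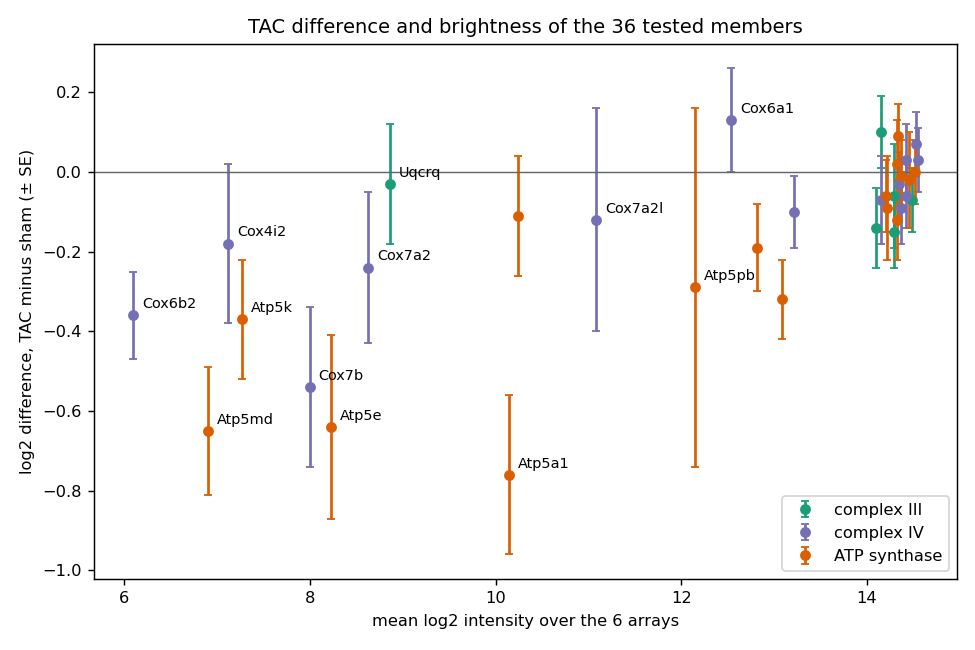
TAC minus sham (vertical axis, log2, bars show ± SE) against the mean log2 intensity over the 6 arrays for the 36 tested members. The 20 members at 14 or more lie between -0.15 and 0.10, while all 8 members under 10 lie below 0.

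The comparison of transgenic with wild-type hearts over both surgeries (3 against 3 arrays) asks what the JMJD2A transgene did to these genes. None passed the test, with 0.949% of all genes passing (106 of 11167). The members split about evenly, with 19 of 36 lower in transgenic hearts against 52.4% of all genes. The medians were -0.11 for complex III (5 of 6 lower), -0.03 for complex IV (9 of 14 lower) and 0.03 for ATP synthase (5 of 16 lower), and -0.01 over all genes. Without transgenic TAC 2 the complex IV median was 0.02. All transgenic arrays lay below all wild-type arrays for 3 members, against 8.55% of genes, and above them for none, against 7.59%.

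Those 3 were Uqcrq and Uqcr10, small subunits of complex III, and Cox8b. Uqcrq had 8.80 and 8.66 in transgenic TAC and 8.80 in transgenic sham hearts, against 9.06 and 8.89 in wild-type TAC and 8.97 in wild-type sham hearts. The difference was -0.22 ± 0.14 (adjusted p 0.610). Uqcr10 had -0.12 ± 0.08 and Cox8b -0.13 ± 0.08. A second Uqcr10 probe, nearly as bright (mean 14.39 against 14.48), had -0.02, and its genotypes overlapped. Cox8b lay at 14.26 to 14.28 on the 3 transgenic arrays and at 14.31 to 14.44 on the wild-type arrays.

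The smallest p of this comparison was that of Cox6b2. It had 6.04 and 6.15 in transgenic TAC and 6.63 in transgenic sham hearts, against 5.90 and 5.83 in wild-type TAC and 6.05 in wild-type sham hearts. Transgenic sham was the highest array, and transgenic TAC 1 and wild-type sham overlapped. The difference was 0.35 ± 0.10 (1.27-fold, p 0.00852, adjusted p 0.209). It was 0.23 without transgenic sham, 0.27 with the median over its probes and 0.82 with the 5th percentile of each array subtracted as background. Without transgenic sham only the TAC arrays compare the genotypes. The largest difference was that of Atp5a1, 0.40 ± 0.19 (adjusted p 0.472), and Atp5md followed Cox6b2 with 0.20 ± 0.15. The lowest were Cox4i2 with -0.25 ± 0.19, Uqcrq, and Atp5e with -0.20 ± 0.22. Atp5e had 0.01 without wild-type TAC 2.

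The sham arrays of the genotypes were compared by size alone, as there is 1 of each. Transgenic sham was above wild-type sham for 22 of 36 members, against 47.1% of all genes, with a median of 0.06 against -0.02 over all genes. Atp5a1 (0.80) and Cox6b2 (0.58) differed by more than 0.5, as did 10.4% of all genes in either direction. Without transgenic sham the genotype difference of Atp5a1, which then rests on the TAC arrays alone, was 0.20.

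Transgenic and wild-type hearts after TAC were compared with 2 arrays each. No member passed the test, and 0.206% of all genes did. Cox6b2 had 0.23 ± 0.12 (p 0.0798; 0.65 with background subtracted), with 6.04 and 6.15 in transgenic TAC hearts, against 5.90 and 5.83 in wild-type TAC hearts. At the other end Uqcrq had -0.25 ± 0.20, Cox4i2 -0.25 ± 0.25 and Atp5d, the delta subunit of the central stalk, -0.24 ± 0.13. Atp5d was at 12.65 and 12.63 in transgenic TAC hearts, against 12.84 and 12.91 in wild-type TAC hearts. In all, 8 members did not overlap between the genotypes, 5 lower and 3 higher, against 16.8% and 15.5% of all genes.

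Within each genotype 2 TAC arrays stood against a single sham array, which the fit assumes to vary like the TAC arrays. In transgenic hearts 29 of 36 members had a lower fitted value after TAC (49.1% of all genes), with a median of -0.12. In wild-type hearts it was 24 of 36 (52.9% of all genes), with a median of -0.06. No member passed the test in either genotype, and 0.0% of all genes did. At an unadjusted p under 0.05 stood 4.86% of all genes in transgenic hearts, among them 4 members, and 3.56% in wild-type hearts, among them 1 member. Atp5a1 had -1.06 ± 0.28 in transgenic and -0.46 ± 0.28 in wild-type hearts. Atp5md had -0.63 ± 0.25 in transgenic and -0.67 ± 0.25 in wild-type hearts, and Atp5e had -0.60 ± 0.37 in transgenic and -0.67 ± 0.37 in wild-type hearts. Cox6b2 had -0.53 ± 0.14 in transgenic and -0.19 ± 0.14 in wild-type hearts. With the median over its probes it had -0.09 in transgenic hearts. Without transgenic TAC 1, 2 members passed in transgenic hearts, Atp5pb and Cox7a2l, as did 2.14% of all genes. That fit sets 1 TAC array against 1 sham array and measures its spread only between the wild-type TAC arrays. Transgenic sham has low Xist and both transgenic TAC arrays have high Xist. With Xist as a covariate 24 of 36 members were lower in transgenic hearts after TAC, Atp5a1 had -0.46 and Atp5e turned to 0.105. The Xist term of that fit is estimated within the TAC groups. It rests mostly on wild-type TAC 1 and TAC 2, with Xist at 10.5 and 5.38. Xist therefore cannot be told apart from any other difference between these arrays.

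The difference between these responses was tested as an interaction, and no member and 0.0% of all genes passed. At an unadjusted p under 0.05 stood 1.64% of all genes and no member. The largest sizes were -0.60 ± 0.39 for Atp5a1, -0.45 ± 0.57 for Cox7a2l and -0.34 ± 0.20 for Cox6b2. At the other end Atp5g3, a c-ring subunit, had 0.16 ± 0.24 and Uqcr10 0.14 ± 0.18. The 95% interval for Atp5a1 was -1.50 to 0.30. With Xist as a covariate Atp5a1 turned to 0.29, and without transgenic TAC 2 Cox7a2l turned to 0.13. That Xist term again rests mostly on the wild-type TAC arrays. Cox6b2 had -0.05 with the median over its probes.

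The tissue-specific isoforms were compared as the difference between their log2 intensities within each array. This shows unequal change of the probes and not a ratio of amounts. The brighter probe of each pair (Cox6a2, Cox7a1, Cox4i1, Cox6b1 and Atp5g3) had a mean of 14.32 to 14.55, near the highest intensity of 14.66, and the part of this limit in the narrow range of these probes was not tested. Of the 7 pairs listed, 5 could be measured, which gave 10 tests over both comparisons, and Cox8a with Cox8b and Atp5g1 with Atp5g3 lacked a probe. Exact two-sided permutation tests over arrays can reach 0.0667 for 4 TAC against 2 sham arrays and 0.1 for 3 transgenic against 3 wild-type arrays, so none could pass 0.05. After Benjamini-Hochberg adjustment over the 10 tests the smallest p was 0.75.

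Cox6a1, the form of most tissues, and Cox6a2, the form of heart and skeletal muscle, were compared first. The log2 difference Cox6a1 minus Cox6a2 was -1.72 and -1.85 in transgenic TAC and -1.73 and -2.09 in wild-type TAC hearts, against -1.89 in transgenic sham and -2.01 in wild-type sham hearts. The TAC arrays spanned the sham values. The mean was -1.85 ± 0.17 (SD, n = 4) after TAC and -1.95 ± 0.09 (SD, n = 2) after sham, a shift of 0.10 (exact permutation p = 0.6). Between transgenic and wild-type hearts the shift was 0.13 (exact permutation p = 0.3). Each gene alone gave 0.13 ± 0.13 for Cox6a1 and 0.03 ± 0.09 for Cox6a2 after TAC. In transgenic hearts they gave -0.02 ± 0.12 and -0.15 ± 0.08 relative to wild-type hearts.

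Cox7a2 and Cox7a1 form the same kind of pair. Cox7a2 minus Cox7a1 was -6.29 and -5.83 in transgenic TAC and -6.24 and -5.70 in wild-type TAC hearts, against -5.77 in transgenic sham and -5.71 in wild-type sham hearts. The TAC 1 array of each genotype was low and TAC 2 was close to the sham arrays. The shift after TAC was -0.27 (exact permutation p = 0.267) and that between genotypes -0.08 (exact permutation p = 0.5). Nearly all of the movement was in the dimmer Cox7a2 probe, which ranged over 0.54, against 0.16 for Cox7a1.

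Cox4i2, a form of subunit 4 known from lung and from low oxygen, was measured against Cox4i1, the common form. The log2 difference was -7.79 and -7.0 in transgenic TAC and -7.33 and -7.01 in wild-type TAC hearts, against -7.23 in transgenic sham and -7.16 in wild-type sham hearts. The transgenic TAC arrays held both the lowest and the highest value. The shift was -0.09 after TAC (exact permutation p = 0.867) and -0.18 between genotypes (exact permutation p = 0.7).

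Cox6b2 minus Cox6b1 was the only pair whose genotypes did not overlap. It was -8.47 and -8.40 in transgenic TAC and -7.80 in transgenic sham hearts, against -8.64 and -8.81 in wild-type TAC and -8.50 in wild-type sham hearts. The means were -8.22 ± 0.37 in transgenic and -8.65 ± 0.16 in wild-type hearts (SD, n = 3 each), a shift of 0.43 at the smallest p this design allows (exact permutation p = 0.1, adjusted p 0.75). After TAC the shift was -0.43 (exact permutation p = 0.267). Both shifts rest largely on transgenic sham: without it they were 0.21 between genotypes and -0.08 after TAC. With the median over the probes they were 0.29 between genotypes and -0.11 after TAC. Cox6b2 alone overlapped between genotypes, and its wild-type values of 5.83 to 6.05 lay near the filter of log2 5.88. Its second probe, below the filter, read 5.94 and 5.87 in transgenic TAC and 5.55 in transgenic sham, against 5.51 to 5.65 in wild-type hearts. The second Cox6b1 probe had a genotype difference of 0.05, where the brighter had -0.08. For the c-ring genes, Atp5g2 minus Atp5g3 shifted by -0.13 after TAC (exact permutation p = 0.733) and by -0.14 in transgenic hearts (exact permutation p = 0.7).

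**Figure D4:**
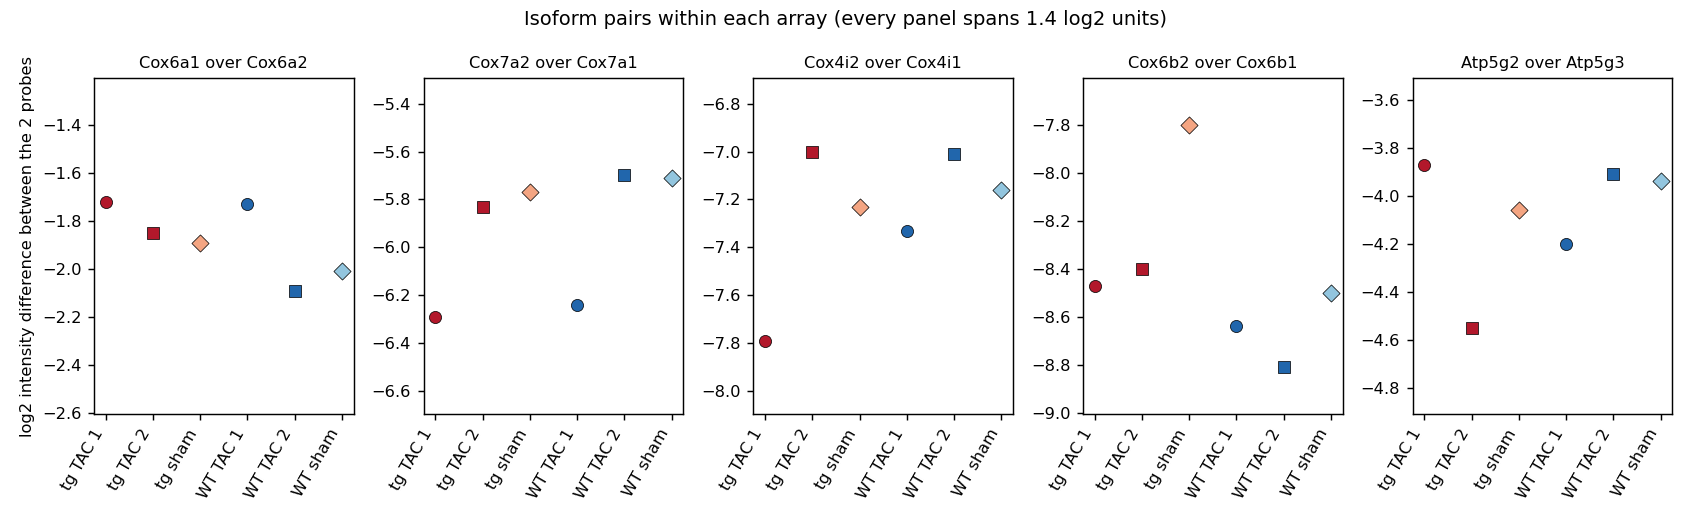
Log2 intensity difference between the probes of 5 isoform pairs (vertical axis) on each of the 6 arrays (horizontal axis), each panel spanning the same number of log2 units. The transgenic arrays lie above the wild-type arrays only in the Cox6b2 panel, and the Cox7a2 and Cox4i2 panels are lowest on TAC 1 of each genotype.

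The arrays of a group did not always agree. Between the transgenic TAC arrays 5 members differed by more than 0.5, against 16.4% of all genes. Atp5pb had 13.13 on TAC 1 and 11 on TAC 2, and Cox7a2l 11.58 and 10.41. Uqcrh, the hinge protein of complex III, had 14.49 and 13.99, while Cox4i2 and Atp5e were higher on TAC 2. Between the wild-type TAC arrays Atp5a1, Atp5e and Cox7b differed by more than 0.5, all higher on TAC 2, against 4.24% of all genes. For Atp5pb this spread gave the widest errors of all members, -0.29 ± 0.45 after TAC and 0.11 ± 0.43 between genotypes. Comparing genotypes after TAC without transgenic TAC 1, Atp5pb passed the test as lower in transgenic hearts (log2 -1.05, adjusted p 0.0388), in a fit where 0.752% of all genes passed. Without transgenic TAC 2 it passed as higher (log2 1.07, adjusted p 0.0258), in a fit where 1.69% of all genes passed.

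Probes of the same gene were a further check. Of the 39 genes 11 had more than 1 probe above the filter, 25 probes in all. Their fitted TAC differences had the same sign within a gene for 9 of the 11, all but Cox6a1 and Uqcr10, and their genotype differences for 5. The second probe of Atp5a1 gave a TAC difference of -0.07 where the brighter gave -0.76. It read 8.57 and 8.52 in transgenic TAC and 8.84 and 8.54 in wild-type TAC hearts, against 8.67 in transgenic sham and 8.71 in wild-type sham hearts. The high level of Atp5a1 in transgenic sham was therefore seen by only the brighter of its 2 probes.

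The 4 probes of Atp5pb also parted. Between transgenic TAC 1 and TAC 2 they differed by 2.13, 1.62, 0.02 and -0.10, in falling order of brightness. All 4 had a negative TAC difference, of -0.19 to -0.58. Atp5o, the subunit that joins the peripheral stalk to the head, had a bright probe with a TAC difference of -0.01 and dimmer ones with -0.35 and -0.31. Between the transgenic TAC arrays the second Atp5o probe differed by 1.47 and the brightest by 0.05. Which transcripts the probes of a gene detect was not tested.

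**Figure D5:**
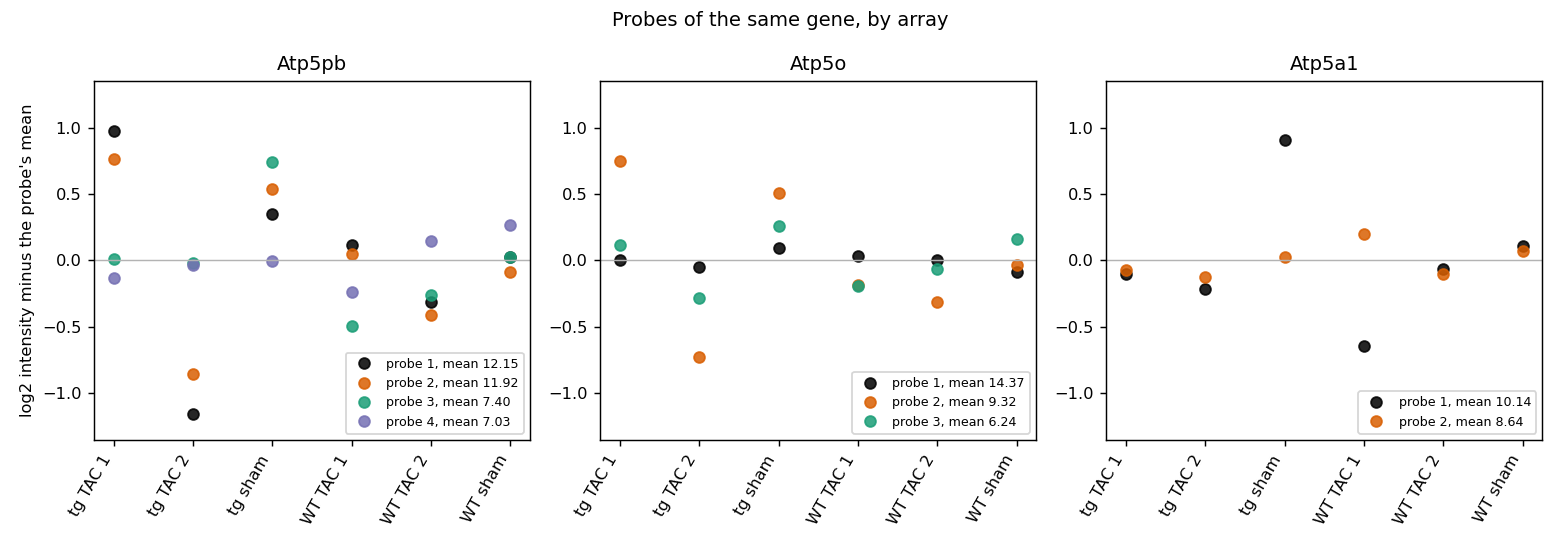
Log2 intensity of each probe minus that probe's mean over the 6 arrays (vertical axis), by array (horizontal axis), for Atp5pb (4 probes), Atp5o (3 probes) and Atp5a1 (2 probes). The brighter Atp5pb probes fall apart between transgenic TAC 1 and TAC 2 where the dimmer ones do not, and the high transgenic sham value of Atp5a1 appears on 1 of its 2 probes.

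The remaining genes of the pathway were followed as lists, and none of their genes passed the test after TAC or between genotypes. After TAC 32 of 34 complex I genes had a lower fitted value, with a median of -0.12. All 3 complex II genes tested were lower, Sdhb with -0.37 ± 0.13, Sdhc with -0.12 ± 0.09 and Sdhd with -0.60 ± 0.21. Cycs, which encodes cytochrome c, had -0.20 ± 0.09, and Cyc1, the cytochrome c1 of complex III, -0.29 ± 0.16. Among assembly factors of complexes III and IV and ATP synthase 24 of 25 were lower (median -0.17), and in the tricarboxylic acid cycle 11 of 12 (median -0.31). The share among all genes was 51.4% and their median -0.01. Without transgenic sham 10 of 12 genes of the tricarboxylic acid cycle were lower with a median of -0.11, and 20 of 25 assembly factors with a median of -0.19. For complex I it was then 31 of 34 with a median of -0.08. Sdhb then had -0.23, Sdhd -0.37 and Cyc1 -0.11.

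Partners of ATP synthase did not all share this sign. Atpif1, the inhibitor of its reverse reaction, had 0.10 ± 0.09 after TAC and 0.31 ± 0.08 in transgenic hearts (adjusted p 0.147). It lay at 14.02 and 14.11 in transgenic TAC and 13.91 in transgenic sham hearts, against 13.71 and 13.73 in wild-type TAC and 13.66 in wild-type sham hearts. All 3 transgenic arrays were above all wild-type arrays, as for 7.59% of all tested genes. Of the 25 assembly factors 13 were lower and 12 higher in transgenic hearts. The smallest adjusted p among them (limma) belonged to Uqcc2, with -0.44 ± 0.11 (0.127), and Fmc1, with -0.47 ± 0.12 (0.137). In both, all transgenic arrays lay below all wild-type arrays, as for 8.55% of all tested genes. The phosphate carrier Slc25a3 had -0.45 ± 0.18 after TAC, and -0.08 without transgenic sham. The ATP and ADP carrier Slc25a5 had 0.02 ± 0.10. Slc25a4, another ATP and ADP carrier of the list, did not pass the filter on dim probes and was not tested.

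Of 8 regulators of mitochondrial genes 6 were lower after TAC (median -0.23) and 4 were lower in transgenic hearts. Ppargc1a, a coactivator that drives mitochondrial gene expression, had -0.42 ± 0.18 after TAC, with 9.13 and 8.60 in transgenic TAC and 8.75 and 8.88 in wild-type TAC hearts, against 9.14 in transgenic sham and 9.38 in wild-type sham hearts. Esrra and Esrrg, the receptors it works with, had -0.24 ± 0.13 and -0.39 ± 0.26. Nrf1 had 0.01 ± 0.17 and Gabpa 0.06 ± 0.15. The subunits encoded in mitochondrial DNA were measured for COX2 (-0.19 ± 0.17), CYTB (0.08 ± 0.08) and ATP6 (-0.15 ± 0.14). Without transgenic sham COX2 turned to 0.12 and ATP6 had -0.02.

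Of the markers of other cells described here, none passed the test after TAC and Acta2 alone passed between genotypes. All 7 fibroblast markers had a higher fitted value after TAC (median 0.28, none past the test). Their summed intensity was 21190 and 25393 in transgenic TAC and 23889 and 18701 in wild-type TAC hearts, against 18028 in transgenic sham and 16400 in wild-type sham hearts. The 6 cardiomyocyte markers were split, 3 lower and 3 higher (median -0.02), and their sum lay at 76935 to 85089 after TAC and 79561 to 83838 after sham. Without transgenic sham 4 were lower and 2 higher. Ryr2 then had -0.29 and Tnni3 -0.25, while the others lay between -0.05 and 0.15. All 4 endothelial markers tested were higher after TAC (median 0.23). The sum over the 6 on the array, however, was 4196 on transgenic TAC 1. This lay below both sham arrays (5378 in transgenic and 4758 in wild-type sham), while the other TAC arrays lay at 5804 to 6188.

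Between genotypes the 4 smooth muscle markers tested were lower in transgenic hearts (median -0.48), and 1 of them, Acta2, passed (-1.67 ± 0.23, adjusted p 0.0118). The sum over the 5 smooth muscle markers on the array was 4967 to 7896 in transgenic and 12337 to 20489 in wild-type hearts. All 7 fibroblast markers had a higher fitted value in transgenic hearts (median 0.17), as did the 4 macrophage markers (median 0.19), whose sums were 706 to 800 in transgenic and 575 to 699 in wild-type hearts. The 5 skeletal muscle markers on the array summed to 257 to 297 in transgenic and 296 to 316 in wild-type hearts. Only 2 of the 5 lay above the filter, an intensity of 58.7 per probe. Sums this near the background were not used to read the muscle isoforms Cox6a2, Cox7a1 and Cox8b. In these bulk samples fewer cells of a type and less RNA per cell cannot be told apart, and the part of other cells in the differences above was not tested.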

How the data were processed

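Heart RNA was measured on 6 Illumina bead arrays. The labels' protocols name Trizol extraction with a DNase I step and biotinylated cRNA. The authors deposited 1 linear intensity per probe and array. The array medians of 56.3 to 56.4 and near-identical sorted columns show that these deposited intensities had been normalized between arrays. The software and any background correction are not stated in the labels. The number of arrays limits the precision.

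Values below 32 (12 values) were set to 32 before log2. Of 45281 probes 34885 had a single symbol in the platform annotation, 18 had several and 10378 had none. Each gene was represented by its brightest probe, and the 11167 genes above the 50th percentile of probes with a single symbol were tested. Linear models were fitted on the log2 values with limma 3.58.1 under R 4.3.3, using lmFit, then eBayes with its trend option, and p-values were adjusted by Benjamini-Hochberg over the 11167 genes. Comparisons over both genotypes or both surgeries came from a model of surgery plus genotype (3 residual degrees of freedom), and the others from a model of 4 groups (2 residual degrees of freedom). Isoform differences were tested by exact permutation in Python 3.11.15 with scipy 1.17.1. The fits were tested on simulated data.

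Values per array are given for isoform pairs, for the 3 largest differences in each direction of a comparison and for the smallest p of each complex. The members and lists were chosen with earlier results of these data known. Atp5h, Atp5k, Uqcrh and Atp5pb, the genes compared by probe, Atpif1, Uqcc2, Fmc1 and Ppargc1a among the lists, and the promoters printed were singled out after their values were seen. Both genotypes number their TAC arrays 1 and 2, but the deviations of same-numbered arrays from their group means correlated at r = -0.0293 over 11167 genes, so the numbers were not taken as pairs. Alternatives were other filters on dim probes, the median over probes, a subtracted background, cyclic loess, no trend, Xist as a covariate, arrays left out, subunits only and the array number as a block.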

Additional observations from a re-analysis of the deposited data

Results flagged for a closer look

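In 2 of the 36 tested members both TAC arrays lay below the sham array in transgenic hearts and above it in wild-type hearts. Atp5o had a TAC difference of -0.11 in transgenic and 0.10 in wild-type hearts, so the responses differed by -0.21 ± 0.18 (SE). Cox7a1 had -0.03 in transgenic and 0.10 in wild-type hearts, a difference of -0.13 ± 0.18. The opposite directions as such were not tested and rest on 1 sham array per genotype. In the interaction fit neither gene passed (limma, unadjusted p 0.269 for Atp5o and 0.474 for Cox7a1). Opposite directions of either kind were seen in 14% of all 11167 genes. No group held enough arrays to ask whether a single array stood apart from its group.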

How the results depend on the processing

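No member passed the test in any of the 6 comparisons under the alternatives run, except when a transgenic TAC array was left out. Leaving out each array in turn gave 0 to 1 members between the genotypes after TAC (Atp5pb) and 0 to 2 for TAC in transgenic hearts (Atp5pb and Cox7a2l). With the replicate block no member passed (0 in each comparison). The block is balanced within each TAC group, so it can change the errors but not the fitted differences. The medians over complex III, complex IV and ATP synthase for TAC against sham, -0.064, -0.08 and -0.114, were therefore bound to stay as in the main fit. Over all genes, 106 passed between the genotypes, against 44 with the 75th percentile filter, 51 with the median over the probes, 54 with Xist as a covariate, 0 without both arrays of low Xist, and 24 to 473 with single arrays left out. After TAC 23 passed between the genotypes, against 38 with no filter, 11 with the 75th percentile filter, 5 with the median over the probes, 10 with cyclic loess, 8 with no trend, 51 with the replicate block, 0 without both arrays of low Xist and 0 to 189 with single arrays left out. For TAC against sham 1 gene passed, against 37 without transgenic TAC 1, and in transgenic hearts 0 passed, against 239 without that array. The main fits subtracted no background from the deposited values, so differences of dim probes may be understated.

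For TAC against sham over both genotypes, the complex III median was -0.046 with cyclic loess, -0.027 without both arrays of low Xist and -0.111 to -0.041 with single arrays left out. The complex IV median was -0.11 to -0.042 with single arrays left out, and that of ATP synthase was -0.231 with the median over the probes. Between genotypes over both surgeries, the complex III median was -0.12 with no filter, -0.056 with the median over the probes, -0.1 with cyclic loess, -0.092 without both arrays of low Xist and -0.159 to -0.066 with single arrays left out. The complex IV median was -0.067 to 0.019 with single arrays left out.

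Signs turned with single arrays left out for some isoform ratios: Cox7a2 over Cox7a1 between genotypes (-0.253 to 0.085), Cox4i2 over Cox4i1 for TAC (-0.183 to 0.082) and between genotypes (-0.346 to 0.051), and Atp5g2 over Atp5g3 for TAC (-0.22 to 0.006) and between genotypes (-0.289 to 0.051). Among single genes they turned for TAC against sham in Atp5g3 (-0.059 to 0.102), Cox6a2 (-0.015 to 0.076), Cox7a1 (-0.033 to 0.101) and Cox8b (-0.061 to 0.0). Between genotypes over both surgeries they turned in Atp5e (-0.422 to 0.013), Atp5g3 (-0.109 to 0.046), Cox6a1 (-0.117 to 0.051) and Cox7a2 (-0.12 to 0.133), and between genotypes after TAC in Atp5a1 (-0.093 to 0.487) and Cox4i2 (-0.603 to 0.107). They also turned for TAC in wild-type hearts in Cox7a2l (-0.004 to 0.214), for TAC in transgenic hearts in Atp5g3 (-0.034 to 0.238) and, comparing those responses, in Cox7a2l (-1.039 to 0.13).

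Without both arrays of low Xist, Cox6a2 (-0.063) and Cox6b1 (-0.015) turned for TAC against sham, and Atp5e (0.208), Cox7a1 (-0.033) and Cox7a2 (0.146) between genotypes. With Xist as a covariate, Atp5g3 turned for TAC against sham (-0.026), Atp5e (0.105), Atp5g3 (-0.205) and Cox6a1 (-0.042) in transgenic hearts, and Atp5a1 (0.293), Atp5g3 (-0.295) and Cox4i1 (-0.048) for the difference of the TAC responses. For TAC in transgenic hearts and the difference of the responses, the Xist term rests mostly on the wild-type TAC arrays. With cyclic loess Cox7a2 was 0.005 between genotypes. The cause was not tested for any of these.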
